A study of Canis lupus familiaris with 8 samples.

Results

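Condensin and cohesin are ring-shaped protein complexes that fold and hold chromosomal DNA, and 10 of their subunit genes are described here in peripheral blood mononuclear cells of dogs. The members were set by gene symbol: SMC2, SMC4, NCAPD2, NCAPG, NCAPH, NCAPD3, NCAPG2, NCAPH2, SMC1A and SMC3. All 10 were found, each in a single row, among the 35048 rows of the count tables, and all 10 passed the filter on low counts that left 20595 genes for testing. The members were chosen by name with the measured difference in counts between obese and normal dogs already known, so the values of the members in that comparison are given as a description, with their spread and without a p-value. The list does not hold every subunit: the cohesin subunits RAD21, STAG1 and STAG2 are outside it and are given below among related genes.

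RNA came from mononuclear cells of blood, mainly lymphocytes and monocytes, sampled from 8 dogs. The obese group had 5 animals: dog 1 was a Dachshund, dog 2 a Chihuahua, dogs 3 and 4 were Labrador retrievers and dog 5 was a Welsh Corgi. The normal group had 3 animals, all of them Beagles. The labels used here give no age, treatment or measure of body condition for either group. As Beagles made up the whole normal group and none of the obese one, body condition and breed cannot be told apart in any comparison. The design text asks which genes differ in expression between the groups.

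As background, both kinds of complex are built on a pair of SMC proteins, long coiled-coil ATPases that meet at a hinge and are closed into a ring by a further subunit. SMC2 and SMC4 are shared by condensin I and condensin II, which compact chromosomes for mitosis and differ in their other subunits. NCAPH and NCAPH2 are the kleisins that close the ring of condensin I and II, and NCAPD2, NCAPG, NCAPD3 and NCAPG2 are HEAT-repeat subunits that bind DNA and the kleisin. Condensin II resides in the nucleus throughout the cell cycle, whereas condensin I reaches chromosomes once the nuclear envelope breaks down. SMC1A and SMC3 form the core of cohesin, which holds sister chromatids together in dividing cells and forms chromatin loops in resting cells as well. Most circulating lymphocytes and monocytes are not dividing.

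The libraries were 3′ tag libraries with 10264202 to 14910982 counts each. Levels are given as CPM, counts scaled to a common library size with TMM factors, as the mean ± SD of each group (obese n = 5, normal n = 3). Tags were counted near the poly(A) end and were not divided by transcript length, so levels are compared between dogs and not between genes. Genes that define the main mononuclear cell types (CD3E for T cells, CD79A for B cells and CD14 for monocytes) had counts in all 8 libraries. Obese dog 3 stood apart from the other obese dogs in neutrophil, erythroid and T cell markers. Its neutrophil markers averaged 5.82 log2 CPM, against 2.36 to 4.04 in the other obese and 3.32 to 5.21 in the normal dogs. Its erythroid markers averaged 5.47 log2 CPM, against 1.88 or less in every other library. T cell markers had 6.44 to 6.89 log2 CPM in the other obese and 5.09 to 5.38 in the normal dogs. Obese dog 3 had 5.43. For the members and the related genes whose calls change without this dog, both values are given, except for MCPH1 and STAG3.

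SMC2, the ATPase shared by both condensins, was at 8.74 ± 2.33 CPM in obese and 50.1 ± 20.8 CPM in normal animals, the largest fold difference among the members. Of the 10 members, 9 had a negative log2 fold change (obese minus normal) and the exception was NCAPH2. The median over the members was −0.82, beside a median of 0.09 over all genes tested and a share of 44.7% of genes with a negative value. The largest differences were those of SMC2, NCAPH and NCAPG, with log2 fold changes of −2.52, −1.89 and −1.70. In 6 members each obese dog lay below each normal dog, namely SMC2, SMC4, NCAPD2, NCAPH, NCAPD3 and NCAPG2. Over all genes tested, 5.15% had every obese dog below every normal dog.

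With edgeR's quasi-likelihood test and Benjamini-Hochberg adjustment over all genes, 1 of the 10 members (SMC2) was past an adjusted p of 0.05, where 0.185% of all genes were called lower. At an unadjusted p under 0.05 there were 6, where 6.72% of all genes were lower. DESeq2 called 3 members (SMC2, SMC4 and NCAPH), with 5.01% of all genes called and 2.1% called lower. With library quality weights limma-voom called 5 (these 3, NCAPG and NCAPG2), with 19.1% of all genes called and 9.93% called lower. Since the members were chosen with this comparison known, these counts are a description and support nothing about the family. Without obese dog 3 edgeR called the same 5 members as limma-voom, with 8.33% of all genes called and 5.06% called lower. No member was called without obese dog 1, 2 or 4, or without normal dog 1 or 3. In these fits only 0.00942 to 0.151% of all genes were called.

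**Figure D1:**
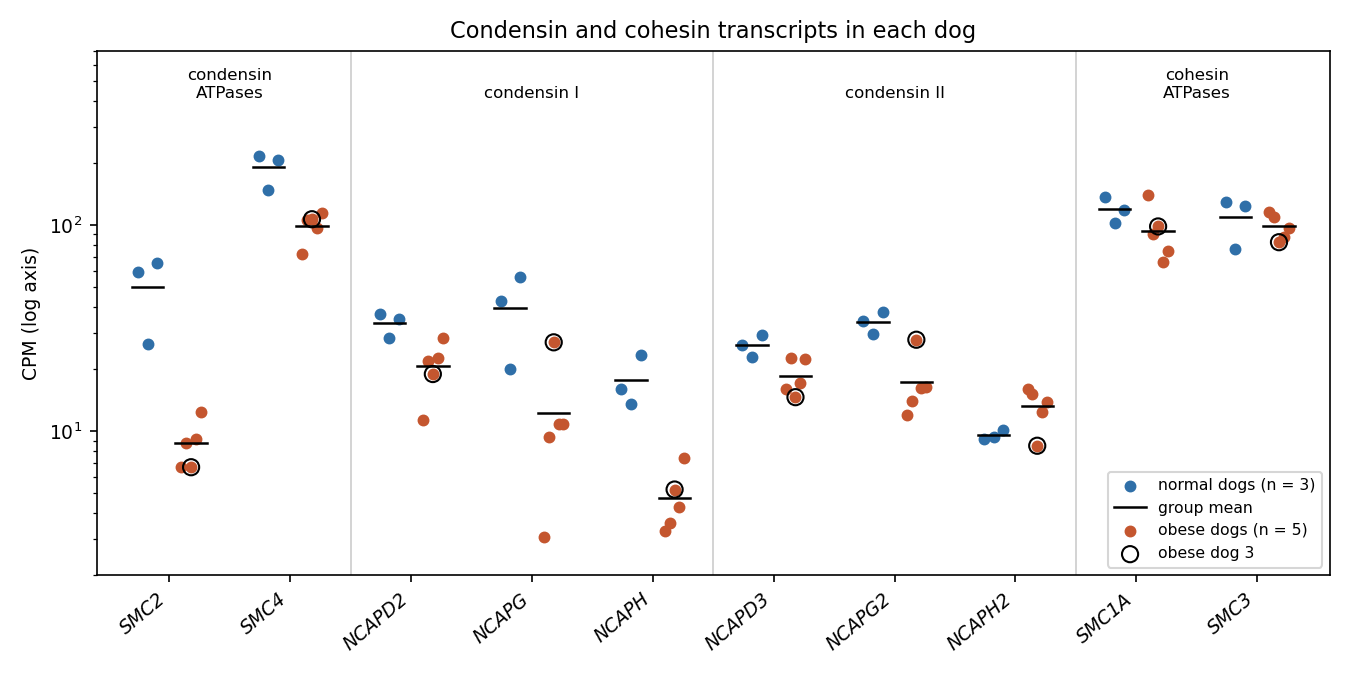
CPM (log axis) of the 10 members in each of the 3 normal and 5 obese dogs; points are dogs, bars are group means, and obese dog 3 is ringed. The groups are furthest apart in SMC2, where the obese dogs reach 12.4 CPM and the normal dogs start at 26.3 CPM, and they overlap in SMC1A and SMC3.

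SMC2, one of the ATPases common to both condensins, had 6.69, 8.79, 6.69, 9.15 and 12.4 CPM in obese dogs 1 to 5 and 58.9, 26.3 and 65.2 CPM in normal dogs 1 to 3. Every obese dog was below every normal dog, and normal dog 2 was the low one of its group. The group values were 8.74 ± 2.33 and 50.1 ± 20.8 CPM, a log2 fold change of −2.52 with a standard error (SE) of 0.345, or 5.72-fold lower. The lowest counts were 59 tags each in obese dogs 1 and 3, and the 95% Poisson interval of obese dog 1 was 5.09 to 8.63 CPM, counting error only. Obese dog 3 did not stand apart here, and without it the log2 fold change of SMC2 was −2.47.

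SMC4, the ATPase that pairs with SMC2, had 72.6, 106, 107, 97.1 and 114 CPM for the obese dogs and 216, 149 and 207 CPM for the normal dogs. The groups did not overlap, and the difference was smaller than for SMC2, with a log2 fold change of −0.94 (SE 0.23). The 2 transcripts, whose proteins act as a pair, therefore stood in a different ratio in the 2 groups. SMC2 made up 5.90 to 9.81% of the summed SMC2 and SMC4 counts in the obese dogs and 15.1, 21.5 and 24.0% in normal dogs 2, 1 and 3. This share needs no scaling between libraries, and it was 8.09 ± 1.44% (n = 5) against 20.2 ± 4.59% (n = 3). The exact binomial 95% interval of the highest obese dog, 8.58 to 11.1%, ended below that of the lowest normal dog, 13.3 to 16.9%, counting error only.

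Among the subunits found only in condensin I, the kleisin NCAPH had 3.29, 3.57, 5.21, 4.29 and 7.41 CPM for the obese dogs and 16.0, 13.5 and 23.5 CPM for the normal dogs. The groups did not overlap, with a log2 fold change of −1.89 (SE 0.361), or 3.71-fold lower. Leaving out obese dog 3 gave NCAPH a log2 fold change of −1.95. NCAPH was the member with the fewest tags over all 8 libraries, 1051. The reference annotation places 3 genes over it, and as descriptions over the 8 libraries r was −0.01 for ITPRIPL1 (1496 counts) and 0.26 for an uncharacterised gene (242 counts), while the remaining one was not matched in the tables.

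NCAPG, a HEAT-repeat subunit of condensin I, had 3.06, 9.39, 27.0, 10.8 and 10.8 CPM for the obese dogs and 42.9, 20.0 and 56.1 CPM for the normal dogs. Obese dog 3 was above normal dog 2, so the groups overlapped, while the other 4 obese dogs were below all normal dogs. With 27 tags in obese dog 1, NCAPG had the lowest count of any member in a library. NCAPG was the most variable member among the obese dogs, with a coefficient of variation of 72.5% against 14.2 to 35.5% for the other 9. Its log2 fold change was −1.70 (SE 0.561) with all dogs and −2.24 (SE 0.456) without obese dog 3, whose removal lowers the obese mean from 12.2 ± 8.86 to 8.52 ± 3.70 CPM. In obese dog 3 NCAPG made up 52.8% of the summed counts of NCAPD2, NCAPG and NCAPH. Its share was 17.3 to 28.6% for the remaining 4 of that group and 32.3 to 48.9% among normal dogs.

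NCAPD2, the other HEAT-repeat subunit of condensin I, differed less. It had 11.3, 21.9, 18.9, 22.8 and 28.2 CPM for the obese dogs and 37.1, 28.4 and 35.2 CPM for the normal dogs. The groups met but did not overlap, since obese dog 5 was just under normal dog 2, and the log2 fold change was −0.70 (SE 0.303). NCAPD2 overlaps MRPL51 in the reference annotation. The log2 counts of the 2 genes moved together over the libraries (r = 0.82, a description). Counts also rise with library depth, so depth can enter this r. Whether strand entered the counting is not stated, so the reads of the 2 genes cannot be told apart. There were 2825 counts in all for NCAPD2 and 941 for MRPL51.

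**Figure D2:**
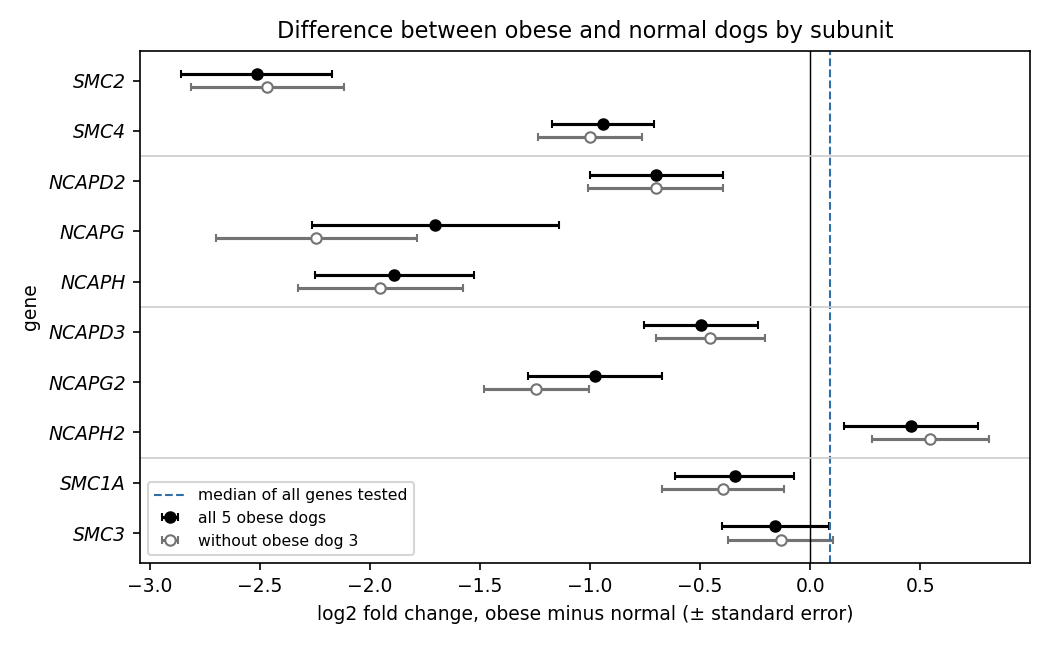
Log2 fold change (obese minus normal) of each member with its standard error, with all 5 obese dogs (filled) and without obese dog 3 (open); the dashed line is the median of all genes tested, 0.09. The values run from −2.52 for SMC2 to 0.46 for NCAPH2, and leaving out obese dog 3 moves NCAPG from −1.70 to −2.24.

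The 3 subunits found only in condensin II did not share a direction. NCAPG2, the condensin II counterpart of NCAPG, had 12.0, 14.0, 27.8, 16.2 and 16.3 CPM for the obese dogs and 34.4, 29.6 and 38.0 CPM for the normal dogs. Obese dog 3 was again the highest of its group, close under normal dog 2, and the log2 fold change of NCAPG2 was −0.98 (SE 0.303), or −1.24 without that dog. NCAPD3, the counterpart of NCAPD2, had 16.0, 22.7, 14.6, 17.1 and 22.3 CPM against 26.3, 22.9 and 29.2 CPM, with a log2 fold change of −0.49 (SE 0.258). Its groups were separated only by the step from obese dog 2 to normal dog 2.

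NCAPH2, the kleisin of condensin II, was the member with a positive value. It had 16.0, 15.2, 8.50, 12.4 and 13.8 CPM for the obese dogs and 9.21, 9.41 and 10.1 CPM for the normal dogs. The normal dogs were close together (9.59 ± 0.492 CPM), and 4 of the 5 obese dogs were above them while obese dog 3 was below. The log2 fold change of NCAPH2 was 0.46 (SE 0.303) with all dogs and 0.55 (SE 0.268) without obese dog 3. The 2 kleisins thus had opposite signs, −1.89 for NCAPH and 0.46 for NCAPH2. NCAPH2 made up 16.7 to 36.3% of the counts of the condensin II subunits in obese dogs, against 13.1 to 15.2% for the normal group. Obese dog 3 was the lowest of its group. Its binomial 95% interval, 13.4 to 20.5%, overlapped that of normal dog 2, 12.3 to 18.5%.

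The subunits of condensin I took 28.7, 40.2, 50.1, 45.3 and 47.0% of the summed counts of condensin I and II subunits (SMC2 and SMC4 left out) in obese dogs 1 to 5, and 57.9, 50.0 and 59.7% in normal dogs 1 to 3. The groups overlapped slightly, since obese dog 3 (50.11%) lay just above normal dog 2 (50.04%). Their intervals were 46.8 to 53.4% and 47.1 to 53.0%. The means were 42.2 ± 8.39% and 55.9 ± 5.14%. Obese dog 1 had the lowest share, and it was also the lowest obese dog in 5 of the 8 condensin genes. Normal dog 2 was the lowest normal dog in 9 of the 10 members.

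**Figure D3:**
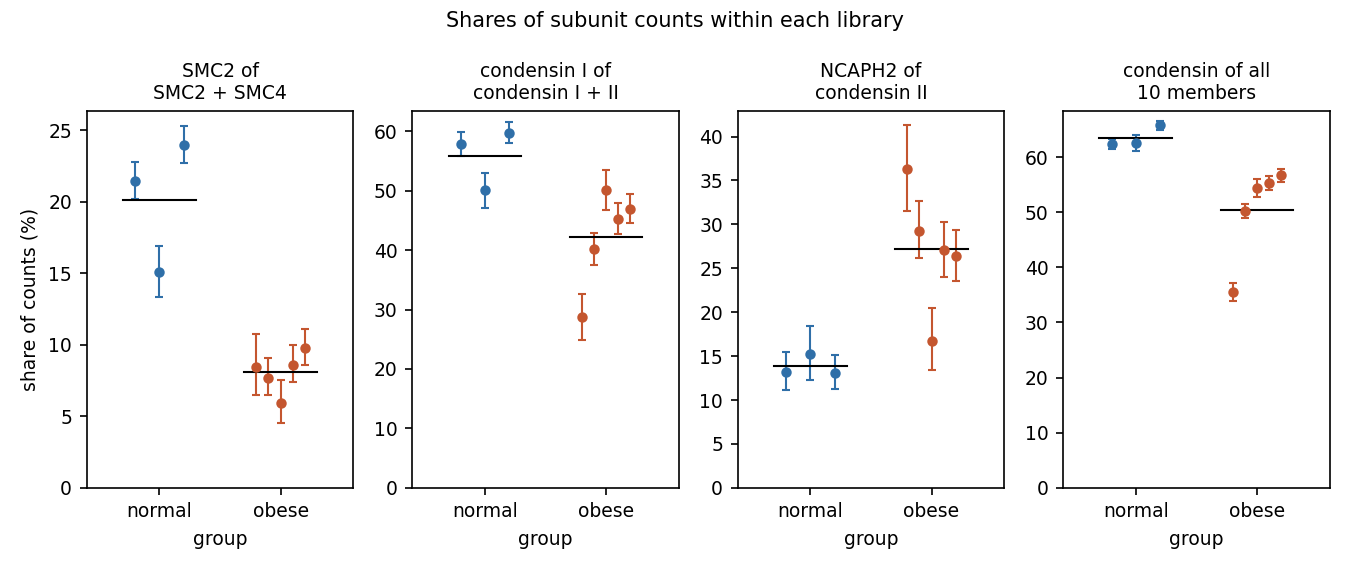
Shares of counts (%) within each library: SMC2 of SMC2 and SMC4, condensin I of condensin I and II subunits, NCAPH2 of condensin II subunits, and all condensin genes of the 10 members. Points are dogs with exact binomial 95% intervals, in the order of their numbers, and bars are group means; the groups are separate in 3 of the panels and touch at about 50.1% in that of condensin I.

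The cohesin ATPases overlapped between the groups. SMC1A had 140, 90.3, 98.4, 66.4 and 74.6 CPM for the obese dogs and 136, 102 and 119 CPM for the normal dogs. Obese dog 1 had the highest value of all 8, and the other 4 obese dogs were below the normal dogs. SMC3 had 115, 110, 82.5, 87.5 and 97.1 CPM for the obese dogs, all within the range of the normal dogs, which had 129, 76.8 and 123 CPM. The log2 fold changes were −0.34 (SE 0.271) for SMC1A and −0.16 (SE 0.242) for SMC3. Over the 14 alternatives SMC3 ran from −0.39 to −0.01, and the median of all genes itself moved from 0.09 with TMM to −0.03 with upper-quartile scaling.

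The condensin genes and the 2 cohesin ATPases were thus counted in a different proportion in the 2 groups. This share leaves out RAD21, STAG1 and STAG2. SMC4 had the most counts of the condensin genes, 14516 over the 8 libraries. The 8 condensin genes took 35.6, 50.1, 54.3, 55.2 and 56.7% of the counts of the 10 members in obese dogs 1 to 5, and 62.4, 62.5 and 65.7% in normal dogs 1 to 3. The groups did not overlap (50.4 ± 8.65% against 63.5 ± 1.91%), and obese dog 1 had the lowest share.

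Related genes outside the member list were taken from 3 lists, and none of their genes was past the threshold in edgeR's test over all genes. Without obese dog 3 edgeR called 6 of 14, 4 of 21 and 1 of 7 tested genes in them, where 8.33% of all genes were called. The first held 14 partners of condensin in mitotic chromosomes, of which 12 had a negative and 2 a positive log2 fold change, with a median of −1.48. At an unadjusted p under 0.05, 8 were lower and 1 was higher (TOP2B), where 6.72% of all genes were lower and 8.99% higher. DESeq2 called 5 of them (AURKB, CDCA8, KIF4A, PLK1 and TOP2A), where it called 5.01% of all genes, and limma-voom 11, where it called 19.1%. Without obese dog 3 the 6 were AURKB, CDCA8, KIF4A, MCPH1, MKI67 and TOP2A. TOP2A, the topoisomerase that untangles chromosomes alongside condensin, had 14.3, 19.6, 40.4, 15.9 and 29.6 CPM for the obese dogs and 96.3, 53.9 and 76.6 CPM for the normal dogs. The groups did not overlap, with a log2 fold change of −1.66 (SE 0.365, adjusted p = 0.098, edgeR), and of −1.96 without obese dog 3 (adjusted p = 0.00599, edgeR). An uncharacterised gene that overlaps TOP2A moved with it (r = 0.89 of log2 counts over the libraries, a description), so part of its reads cannot be told apart. Library depth can enter this r as well.

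KIF4A, a chromosome-bound kinesin, had 8.94 ± 3.42 CPM for the obese and 25.4 ± 5.04 CPM for the normal dogs (adjusted p = 0.108, edgeR). AURKB, the kinase of the chromosomal passenger complex, had 19.1 ± 6.17 against 45.3 ± 1.31 CPM (adjusted p = 0.108, edgeR). CDCA8, or borealin, of the same complex, had 1.58 ± 0.767 against 9.31 ± 4.33 CPM (adjusted p = 0.0872, edgeR). The counts of CDCA8 in the obese dogs were low, at 4 to 44 tags. Without obese dog 3 the log2 fold changes of KIF4A, AURKB and CDCA8 were −1.37, −1.18 and −2.51, with adjusted p-values of 0.0246, 0.0293 and 0.022 (edgeR). MKI67, which coats mitotic chromosomes and marks cycling cells, had 20.1, 14.5, 144, 13.3 and 23.4 CPM for the obese dogs and 147, 89.8 and 116 CPM for the normal dogs. In MKI67, as in NCAPG, obese dog 3 lay within the normal range while the other 4 obese dogs were below it. SMC2, SMC4, NCAPD2 and NCAPH did not show this. The log2 fold change of MKI67 was −1.45 (adjusted p = 0.401, edgeR), and −2.76 without obese dog 3 (adjusted p = 0.00112, edgeR).

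The next list held 21 further genes of cohesin and its regulators, of which 15 had a negative and 6 a positive value, with a median of −0.31. At an unadjusted p under 0.05, 5 were lower and 1 higher, where 6.72% and 8.99% of all genes were. DESeq2 called 2 (CDCA5 and ESCO2) and limma-voom 6, beside 5.01% and 19.1% of all genes. Without obese dog 3 edgeR called CDCA5, ESCO2, MAU2 and STAG3. The smallest p-values were those of CDCA5 and ESCO2. CDCA5, or sororin, which protects cohesion in replicated chromosomes, had 2.24 ± 0.98 CPM for the obese and 10.7 ± 3.73 CPM for the normal dogs, a log2 fold change of −2.26 (SE 0.453, adjusted p = 0.0763, edgeR). ESCO2, the acetyltransferase that acts on SMC3 during replication, had 1.74 ± 0.956 against 6.44 ± 1.79 CPM (log2 fold change −1.88, adjusted p = 0.133, edgeR). In both genes every obese dog was below every normal dog. The counts in the obese dogs were low, at 10 to 45 tags for CDCA5 and 13 to 58 for ESCO2. Without obese dog 3 their log2 fold changes were −2.51 (adjusted p = 0.00836, edgeR) and −1.90 (adjusted p = 0.044, edgeR).

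The subunits that complete the cohesin ring differed less. RAD21, its kleisin, had 99.7 ± 20.0 CPM for the obese and 117 ± 6.28 CPM for the normal dogs (log2 fold change −0.23, adjusted p = 0.664, edgeR). STAG2 had 101 ± 7.02 against 92.6 ± 13.0 CPM (log2 fold change 0.13, adjusted p = 0.789, edgeR), and both genes overlapped between the groups. STAG1, the alternative to STAG2, had 314 to 454 CPM for the obese and 479 to 610 CPM for the normal dogs without overlap, with a log2 fold change of −0.62 (adjusted p = 0.239, edgeR). MAU2, a part of the cohesin loader, had 62.4, 75.1, 34.7, 69.7 and 71.3 CPM for the obese and 36.1 to 38.2 CPM for the normal dogs (log2 fold change 0.75, adjusted p = 0.247, edgeR), with obese dog 3 below the normal dogs. Without that dog MAU2 was at 0.87 (adjusted p = 0.0265, edgeR).

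The last list held the SMC5/6 complex, a related ring that acts in DNA repair. Of 9 genes 7 were matched by symbol and tested; 4 had a negative and 3 a positive value, with a median of −0.21. At an unadjusted p under 0.05 none was lower and 1 was higher, and DESeq2 called 0 and limma-voom 1, counts near the 8.99% of all genes higher and the 19.1% called by limma-voom. That gene was NSMCE1, with 45.0 ± 16.8 CPM for the obese and 25.0 ± 3.94 CPM for the normal dogs (adjusted p = 0.284, edgeR), and without obese dog 3 its log2 fold change went from 0.85 to 0.99 (adjusted p = 0.0412, edgeR). SMC6 had 148 ± 16.1 against 205 ± 55.1 CPM (adjusted p = 0.363, edgeR) and NSMCE2 had 190 ± 68.6 against 247 ± 45.2 CPM (adjusted p = 0.582, edgeR). SLF1, which recruits the complex to damaged DNA, had 85.8 CPM in obese dog 3 and 9.07 to 20.0 CPM in all other dogs. Its log2 fold change was 0.77 (adjusted p = 0.622, edgeR) with that dog and −0.23 without it.

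**Figure D4:**
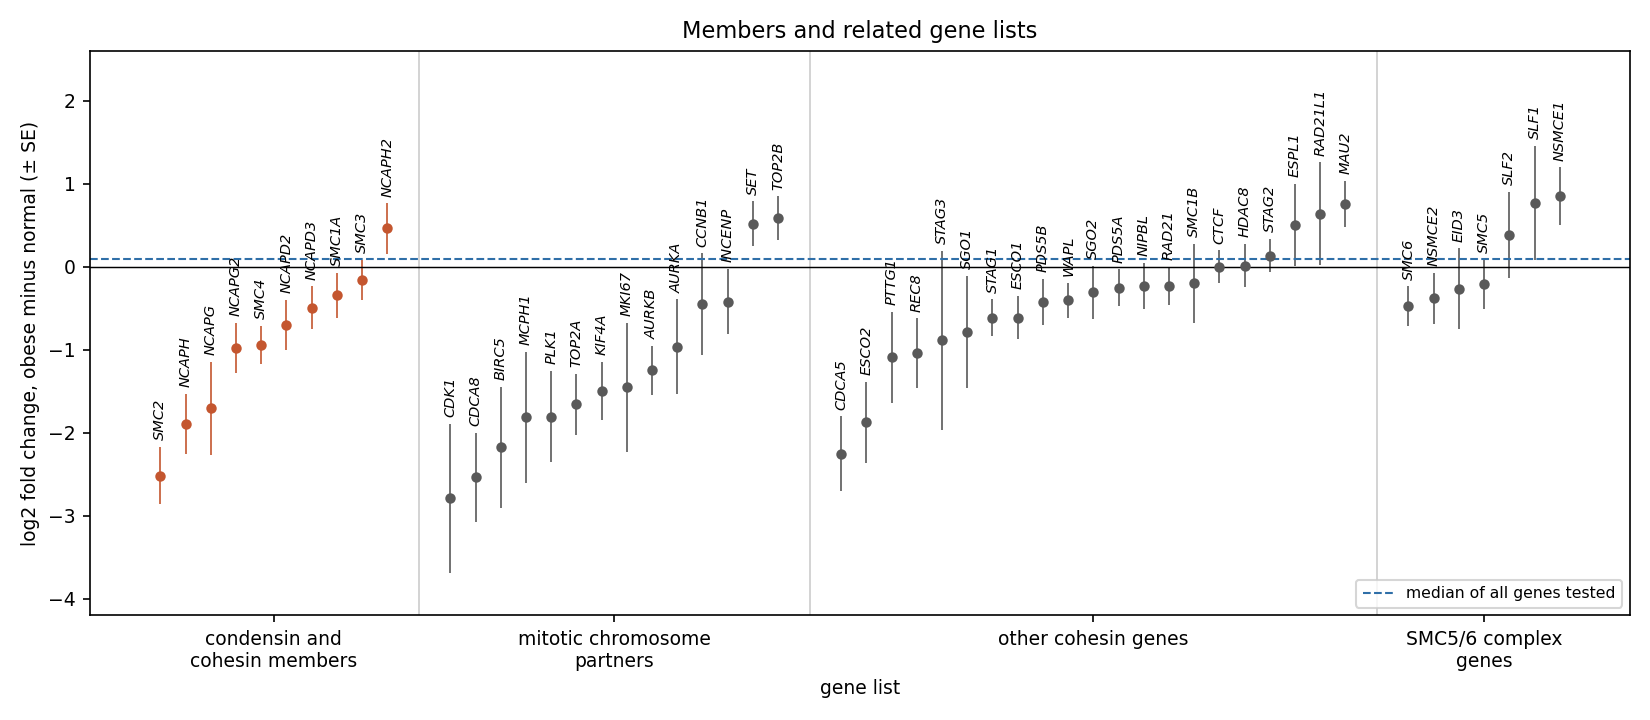
Log2 fold change (obese minus normal) with its standard error for the 10 members and the genes of 3 related lists, each ordered by value; the dashed line is the median of all genes tested. The mitotic chromosome partners have a median of −1.48, the other cohesin genes −0.31 and the SMC5/6 genes −0.21.

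The genes whose log2 CPM over the 8 dogs was most like the mean of NCAPD2, NCAPG and NCAPH were ranked among 10112 named genes with at least 5 CPM on average. The first 5 were CCNB2, or cyclin B2 (Pearson r = 0.994), SHCBP1 (r = 0.977), the thymidine kinase TK1 (r = 0.975), the galectin LGALS3 (r = 0.974) and the member SMC4 (r = 0.971). For the mean of SMC1A and SMC3 they were AP3M1 (r = 0.955), COPB1 (r = 0.950), MRFAP1 (r = 0.941), EME1 (r = 0.939) and EIF3I (r = 0.938). These r values are descriptions over 8 libraries that hold both groups, and they carry the difference between the groups within them.

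Markers of other cells moved with the groups as well. Of 7 tested plasma cell markers 6 had a negative log2 fold change, 1 was called, and their summed level was 132 to 249 CPM for the obese and 302 to 1078 CPM for the normal dogs. Their median log2 fold change was −2.18, and MZB1, DERL3 and SDC1 were each at 0 in 1 library. All 9 T cell markers had a positive value, with 463 to 1619 against 337 to 470 CPM in sum. All 5 tested platelet markers did too, with 66.3 to 1230 against 7.19 to 31.1 CPM, and GP9 was at 0 in 1 library. The 7 B cell markers, 6 of them positive, overlapped between the groups (33.3 to 217 against 36.1 to 67.4 CPM), as did the neutrophil markers (149 to 4717 against 1042 to 5049 CPM, 4 of 7 positive) and the NK cell markers (48.9 to 136 against 53.8 to 93.8 CPM, 4 of 7 positive). The summed monocyte markers did not overlap, with 425 to 1039 CPM in obese and 1081 to 2332 CPM in normal animals. VCAN, at 377 ± 270 against 1470 ± 653 CPM, had the highest mean of these markers, while the other 5 of the 6 monocyte markers had a positive value and the median was 0.32. The summed dendritic cell markers did not overlap either, with 64.6 to 179 against 41.7 to 64.4 CPM and 3 of 5 positive. IRF8, at 97.5 ± 45.4 against 26.9 ± 15.1 CPM, had the highest mean of them. The mean log2 CPM of the 5 overlapped, at 2.17 to 2.79 in obese and 1.99 to 2.79 in normal animals. All 6 tested erythroid markers were positive, with 8.40 to 1161 against 6.68 to 10.5 CPM in sum. The part of these cells in the values of the condensin genes was not tested. In bulk RNA fewer cells of a type and less RNA per cell cannot be told apart.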

How the data were processed

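RNA was sequenced from mononuclear cells of 5 obese and 3 normal dogs with a Lexogen QuantSeq 3′ kit, per the labels' protocols. The authors deposited 1 table per dog of whole-number counts per gene symbol, not normalized. Bowtie2 and bedtools are named in the submitters' processing notes; what each did, the build, the gene models and the use of strand were not given in the sources used here. Groups came from the sample titles, which name separate dogs. Of rows with a repeated symbol the one with the highest mean was kept. Counts were fitted in R 4.3.3 with edgeR 4.0.16 (filterByExpr, TMM, robust quasi-likelihood test) and adjusted over 20595 genes. Standard errors were taken as the size of the log2 fold change over the square root of F. Alternatives were DESeq2 1.42.0, limma 3.58.1 voom with quality weights, upper-quartile factors, no filter, summed repeated symbols, the dog number as a block, and leaving out each dog. The edgeR step was tested on simulated data with 50 changed genes. It called 0% of them at 2-fold, 26% at 4-fold, 74% at 8-fold and 76% at 16-fold. It made 8 false calls. A gene that was not called may therefore still differ. Overlapping genes were looked up by symbol in a RefSeq table of UU_Cfam_GSD_1.0, without coordinates. No pair of libraries within a group agreed within sampling noise (lowest chi-square per degree of freedom 36.0).

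The members and lists were chosen with earlier results of these data known. Named were all members, TOP2A, MKI67, RAD21, STAG2 and the 4 genes with the smallest p of each related list. The 5 most alike genes of 2 patterns were also named. TOP2B, STAG3, MCPH1, PLK1, VCAN and IRF8 were named after their values were seen.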

Additional observations from a re-analysis of the deposited data

Results flagged for a closer look

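In 31 sets of 5 obese values (members, named related genes and shares), 4 had a dog far from the other 4, where chance gives about 5% of sets. The sets come from the same 5 dogs and the shares reuse the same genes. They are therefore not independent, and the 5% gives no test of an excess. NCAPG2 was 27.8 CPM in obese dog 3 and 12.0 to 16.3 CPM in the other obese dogs. MKI67 was 143.9 CPM in obese dog 3 and 13.3 to 23.4 CPM in the others. SLF1 was 85.8 CPM in obese dog 3, and STAG2 was 113.7 CPM in obese dog 2 against 96.4 to 101 CPM in the others.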

How the results depend on the processing

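All 10 members kept the sign of their log2 fold change in all 14 alternatives, and the median of the members ran from −0.997 to −0.70. SMC2 ran from −2.85 to −2.31 and was past the threshold in 8 of the 14, and SMC3 came closest to 0, at −0.01. The count of members whose groups do not overlap was 6 in the main analysis, 4 with no filter on low counts, and 4 to 8 when 1 dog was left out. In the main analysis 5.15% of all genes had every obese dog below every normal dog. That share is not given for the alternatives. With fewer dogs the groups of any gene separate more easily, so nothing is read from the range of these counts. The calls over all genes, 10 higher and 38 lower, were 584 and 426 with DESeq2, 1884 and 2046 with limma-voom, and 0 to 664 and 2 to 1027 when 1 dog was left out, the highest being without obese dog 3. The called genes in the lists of other cohesin genes, SMC5/6 genes and mitotic partners, 0 each in the main analysis, were 2, 0 and 5 with DESeq2, 6, 1 and 11 with limma-voom, and 0 to 4, 0 to 1 and 0 to 6 when 1 dog was left out. The median of all genes moved from 0.09 to −0.0329 with upper-quartile factors, −0.0325 with the replicate block and −0.00282 with limma-voom. SLF1 reversed to −0.19 with limma-voom and to −0.23 without obese dog 3, and ran from −0.23 to 0.997 over the analyses without 1 dog; beyond that dog's high value the cause was not tested. Dog numbers are shared between the groups but name different dogs, and same-numbered dogs did not deviate together (r = −0.03, −0.21 and 0.01); with the number as a replicate block 0 genes were called higher and 0 lower, and the median of the members was −0.997. Among the members, depth limits NCAPG, NCAPH and SMC2 most, with 27, 29 and 59 tags in obese dog 1.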

Other observations

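The 2 Labrador retrievers of the obese group, obese dogs 3 and 4, can be set side by side within 1 breed, with no test. NCAPG was 27.0 and 10.8 CPM, NCAPG2 27.8 and 16.2 CPM and MKI67 144 and 13.3 CPM in dogs 3 and 4. SMC2 went the other way, with 6.69 and 9.15 CPM, and so did NCAPH2, with 8.50 and 12.4 CPM. NCAPH was 5.21 and 4.29 CPM and SMC4 was 107 and 97.1 CPM.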
